A study of Homo sapiens with 6 samples.

Results

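The 10 genes described here encode SR splicing factors, SRSF1, SRSF2, SRSF3, SRSF4, SRSF5, SRSF6, SRSF7, SRSF9, SRSF10 and SRSF11. They were taken by gene symbol from a table of 56303 genes, and all 10 passed the filter on low counts, as did 21005 genes in all. The samples were SW480 cells, a line from a human colorectal adenocarcinoma, transduced with lentivirus. The virus carried a short hairpin RNA that was either nonsilencing (shCtrl) or directed at MORC2 (shMORC2), which encodes a nuclear ATPase. Each group had 3 polyadenylated RNA libraries, numbered 1 to 3. Both groups were labelled wild type, came from puromycin-selected stable clonal lines per the study's methods, and rested on a single MORC2 hairpin, so a difference between the groups cannot be told apart from one between lines. The study's methods describe the libraries of a group as replicate experiments, so p-values measure the spread between experiments on these lines. The study examined how MORC2 takes part in alternative splicing in colorectal cancer cells, and the levels of the SR genes bear on which splicing regulators differed between the lines.

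SR proteins carry 1 or more RNA recognition motifs and a tail rich in arginine and serine. They bind enhancer sequences in exons, recruit the spliceosome to nearby splice sites, and often oppose hnRNP proteins. Kinases of the SRPK and CLK families phosphorylate the tail, which controls import into the nucleus, release from nuclear speckles and activity in splicing. Many SR genes limit their own expression through a poison exon or a retained intron, whose inclusion gives transcripts that are destroyed by nonsense-mediated decay.

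Promoter sequence of SRSF7 and SRSF9 is shown because these genes differed between the groups in opposite directions and have upstream sequence free of annotated exons of their own. The sequences came from RefSeq promoters (GRCh38.p14), in which 9 of the 10 SR genes had an entry. Each run is 100 bases on the minus strand, and capitals mark GGGCGG or its reverse complement CCGCCC. The SRSF7 run (chr2:38751495-38751594) lies directly before 1 of its 2 listed starts, and the SRSF9 run (chr12:120469794-120469893) lies 45 bases before its start.
SRSF7: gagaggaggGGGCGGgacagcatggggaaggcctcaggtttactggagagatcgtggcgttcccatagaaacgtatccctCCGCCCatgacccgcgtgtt
SRSF9: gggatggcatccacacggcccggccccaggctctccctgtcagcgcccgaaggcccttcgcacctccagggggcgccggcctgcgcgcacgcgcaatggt

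The 250 bases before each start were searched on both strands for 5 motifs, none of which contains another. GGGCGG, the core of a GC box, was in a promoter of 3 of the 9 SR genes (SRSF4, SRSF6 and SRSF7) and in 42.6% of 35116 promoters. TATAA was found in 3 of the 9 (SRSF3, SRSF7 and SRSF11) and in 18.9% of all promoters. CCAAT was found in SRSF3 alone and in 32.0% of all promoters. Neither TGACGTCA nor CACGTG was found in an SR promoter, against 1.65% and 6.34% of all promoters. The SR counts are per gene, matched in any of its entries (11 entries in all), while the percentages are per promoter. SRSF7 and SRSF11 had more than a single entry, and TATAA was not in all of them. These matches are descriptions of letters in a window.

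The libraries held 42092664 to 43434425 counts, of which the SR genes took 0.215% to 0.248%. The targeted gene, MORC2, stood at 46.1, 46.4 and 48.8 CPM (counts scaled by TMM to a common library size) in shCtrl and at 35.03, 29.3 and 27.2 CPM in shMORC2. It was lower in all 3 shMORC2 libraries, with a log2 fold change of -0.63 (SE 0.10, adjusted p 0.000216 in edgeR). RBM39, the splicing factor that the study followed, was also lower, with a log2 fold change of -0.27 (SE 0.08, adjusted p 0.0143 in edgeR). Of the 10 colon epithelium markers, 9 were tested, and their summed level was 20150 to 26195 CPM in shCtrl and 19187 to 26080 CPM in shMORC2, a sum made up mostly of keratins, while CDX1 had at most 10 counts in any library. Among them CEACAM5 was called lower (log2 fold change -1.08), and KRT20 (0.75) and CDX2 (0.47) were called higher. Summed leukocyte markers ran from 37.96 to 47.5 CPM in shCtrl and from 59.02 to 110.3 CPM in shMORC2, where CD68, a lysosomal protein of macrophages and other cells, was called higher (log2 fold change 1.27, edgeR adjusted p 0.000296). PTPRC and CD3E had at most 10 counts in any library. Summed fibroblast markers ran from 20.01 to 20.9 CPM in shCtrl and from 22.7 to 24.96 CPM in shMORC2, with COL1A2, COL3A1 and DCN at no more than 10 counts. Summed endothelium markers ran from 15.7 to 19.6 CPM in shCtrl and from 20.6 to 22.3 CPM in shMORC2, with CDH5 and KDR at no more than 10 counts and VWF called higher (log2 fold change 0.54). The part of these shifts in the SR results was not tested. The library shCtrl 3 stood apart in 1 abundant small RNA, RN7SK, at 235.8 CPM against 4.72 to 6.52 CPM in the other 5 libraries.

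SRSF5 and SRSF7 were higher in shMORC2, and SRSF9 and SRSF10 were lower, each with no overlap between the groups in TMM-scaled CPM. Called here means an adjusted p under 0.05 over all genes tested. Calls were made for 39.5% of all 21005 genes tested, 19.9% being higher and 19.6% lower in shMORC2, and the CPM ranges of the groups were apart for 50.2%. Among the SR genes 4 of 10 were called, 2 in each direction, and the CPM ranges of 4 of 10 were apart, so both shares lay near or below those of all genes. In RPKM, which is scaled to the plain library total, the ranges were apart for 49.6% of all genes and for 3 of the 10 SR genes, namely SRSF5, SRSF9 and SRSF4, while those of SRSF7 and SRSF10 overlapped. Without shCtrl replicate 3, the library with the high RN7SK, the count of SR genes called was also 4, beside 6707 of the 21663 genes tested in that fit. Of the 2662 tested genes with a mean count at least that of the least counted SR gene, 51.6% were called. The median log2 fold change was 0.04 over the SR genes and -0.0056 over all genes tested, and the median size of the change was 0.15 over the SR genes, 0.31 over all genes tested and 0.23 over the genes counted at least as highly. As in any bulk RNA sample, fewer cells expressing a gene and less of its RNA per cell cannot be told apart.

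**Figure D1:**
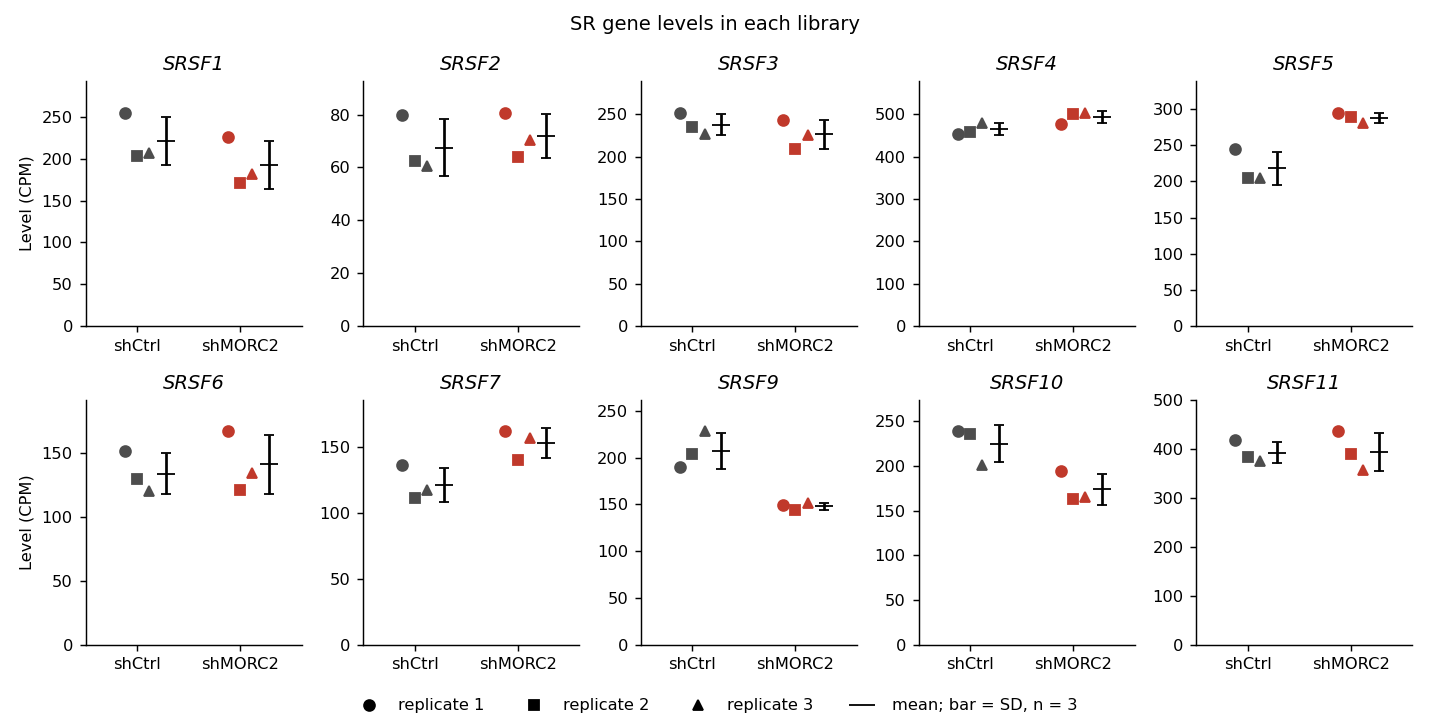
Level of each SR gene (CPM, each panel with its own axis from 0) in 3 shCtrl and 3 shMORC2 libraries, with symbols for the replicate number and the mean and SD (n = 3) beside them. The groups are apart for SRSF5 and SRSF7, which are higher in shMORC2, and for SRSF9 and SRSF10, which are lower.

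SRSF9 encodes a small SR protein with a short arginine-serine tail, closely related to SRSF1. The gene lies on chromosome 12 from 120461668 to 120469793 (minus strand, GRCh38), with 4 merged exon blocks. Its level was 190.4, 203.6 and 228.1 CPM in shCtrl replicates 1, 2 and 3, and 149.2, 143.6 and 151.1 CPM in shMORC2. The highest shMORC2 library was below the lowest shCtrl library, and the shMORC2 libraries lay close together. The shCtrl mean was 207.4 ± 19.1 CPM and the shMORC2 mean 148.0 ± 3.88 CPM (SD, n = 3 each), which left 71.4% of the control level. SRSF9 had the largest called change among the 10 genes, with a log2 fold change of -0.49 (SE 0.08, 95% interval -0.66 to -0.31, edgeR adjusted p 0.000403). GATC, a gene on the opposite strand that encodes a subunit of the mitochondrial glutamyl-tRNA amidotransferase, shares 1729 bases, or 46.2%, of the SRSF9 exon sequence. The strand setting of the counting is not given in the sources used here, so reads in the shared bases may be of either gene or be left uncounted. GATC itself held 1804 to 1810 counts in shCtrl and 1769 to 1789 in shMORC2, with a log2 fold change of -0.04 (SE 0.07, adjusted p 0.701 in edgeR).

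SRSF10 encodes an SR protein that acts as a general repressor of splicing once dephosphorylated, as happens in mitosis and after heat shock. The gene lies on chromosome 1 from 23964804 to 23980927 (minus strand). Its level was 238.6, 235.6 and 201.1 CPM in shCtrl and 194.2, 163.0 and 164.9 CPM in shMORC2. The groups were apart by a narrow gap in CPM, between shCtrl replicate 3 and shMORC2 replicate 1. In RPKM the same libraries stood at 19.1 and 19.3, so that the groups overlapped. The means were 225.1 ± 20.8 CPM and 174.0 ± 17.5 CPM, so that 77.3% of the control level remained. The log2 fold change was -0.37 (SE 0.09, 95% interval -0.57 to -0.17, edgeR adjusted p 0.00607).

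SRSF5 encodes an SR protein that binds exonic enhancers and was also found as an insulin-induced gene in liver cells. The gene lies on chromosome 14 from 69726900 to 69772005 (plus strand). Its level was 244.7, 205.2 and 204.0 CPM in shCtrl and 294.5, 288.5 and 280.9 CPM in shMORC2. All 3 shMORC2 libraries were above the highest shCtrl library, which was replicate 1. The means were 218.0 ± 23.1 CPM and 288.0 ± 6.85 CPM, or 132.1% of the control level in shMORC2. SRSF5 had a log2 fold change of 0.40 (SE 0.08, 95% interval 0.22 to 0.58, edgeR adjusted p 0.00199).

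SRSF7 encodes an SR protein with a zinc knuckle beside its RNA recognition motif, which shuttles between nucleus and cytoplasm and takes part in mRNA export. The gene lies on chromosome 2 from 38743599 to 38751494 (minus strand), directly downstream of the sequence printed above. Its level was 136.4, 111.4 and 117.3 CPM in shCtrl and 162.2, 140.2 and 157.4 CPM in shMORC2. In CPM the groups were apart, with shCtrl replicate 1 only slightly below shMORC2 replicate 2. In RPKM these libraries stood at 34.6 and 33.99, so that the groups overlapped. The means were 121.7 ± 13.0 CPM and 153.3 ± 11.6 CPM, or 126.0% of the control level. The log2 fold change was 0.33 (SE 0.09, 95% interval 0.14 to 0.53, edgeR adjusted p 0.0102). Without shCtrl replicate 2 it was 0.27 and was no longer called (edgeR adjusted p 0.0556).

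SRSF1 encodes the founding member of the family, an oncoprotein that promotes exon inclusion and also acts in nonsense-mediated decay and translation. The gene lies on chromosome 17 from 58003360 to 58007346 (minus strand). Its level was 254.9, 203.7 and 206.7 CPM in shCtrl and 225.8, 170.9 and 181.8 CPM in shMORC2. The groups overlapped, because replicate 1 was high in both of them, and within each replicate number the shMORC2 library was the lower. The means were 221.8 ± 28.8 CPM and 192.8 ± 29.1 CPM. The log2 fold change was -0.20 (SE 0.11, 95% interval -0.44 to 0.04, edgeR adjusted p 0.170), which was not called. With the replicate block, which compares libraries of the same number, SRSF1 was called lower (log2 fold change -0.20, SE 0.06, edgeR adjusted p 0.00294). That pairing was taken from these same values and is not given in the labels, so this call depends on it. With single libraries left out of the fit on group alone, the log2 fold change of SRSF1 ran from -0.09 without shCtrl replicate 1 (edgeR adjusted p 0.527) to -0.33 without shMORC2 replicate 1 (edgeR adjusted p 0.0132), and it was -0.12 without shMORC2 replicate 2 (edgeR adjusted p 0.503). The noncoding gene RP11-159D12.6, on the opposite strand, shares 440 bases (13.2%) of SRSF1 exon sequence, and was called lower as well (log2 fold change -0.41, SE 0.12, edgeR adjusted p 0.0173). RP11-159D12.5 shares 331 bases (9.91%) on the same strand and was not called (log2 fold change 0.0048, edgeR adjusted p 0.974).

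The other 5 SR genes had overlapping groups in CPM and were not called. SRSF4, which has one of the longest arginine-serine tails of the family, lies on chromosome 1 from 29147743 to 29181987. It was counted most of all 10, at 454.3, 459.3 and 480.7 CPM in shCtrl and 478.4, 501.4 and 503.3 CPM in shMORC2. Its RPKM was 51.9 to 52.8 in shCtrl and 54.9 to 55.9 in shMORC2, so on that scale the groups were apart. Its log2 fold change was 0.09 (SE 0.07, 95% interval -0.06 to 0.24, edgeR adjusted p 0.341). The entry uc_338, an ultraconserved element, shares 169 bases (1.90%) of its exon sequence on the same strand and was not called (log2 fold change -0.09, edgeR adjusted p 0.471). SRSF11, whose protein interacts with U2AF at the start of spliceosome assembly, lies on chromosome 1 from 70205682 to 70253052. It stood at 416.6, 383.8 and 375.6 CPM in shCtrl and at 435.0, 388.9 and 356.7 CPM in shMORC2, and both groups had replicate 1 highest and replicate 3 lowest. Its log2 fold change was 0.0056, with a 95% interval from -0.18 to 0.19 (edgeR adjusted p 0.966).

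SRSF3, the smallest SR protein, with roles in splicing, polyadenylation site choice and mRNA export, lies on chromosome 6 from 36594353 to 36605600. It stood at 251.8, 235.7 and 226.7 CPM in shCtrl and at 244.0, 209.1 and 226.3 CPM in shMORC2. Its log2 fold change was -0.07 (SE 0.08, 95% interval -0.24 to 0.10, edgeR adjusted p 0.503). SRSF6, an enhancer-binding SR protein, lies on chromosome 20 from 43457928 to 43464247. It stood at 152.0, 129.6 and 120.8 CPM in shCtrl and at 167.1, 121.6 and 135.0 CPM in shMORC2, so the range of shMORC2 was the wider. Its log2 fold change was 0.07 (SE 0.11, 95% interval -0.17 to 0.32, edgeR adjusted p 0.638).

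SRSF2, a nuclear speckle protein that recognises enhancers in exons, lies on chromosome 17 from 76734115 to 76737374. It stood at 79.9, 62.3 and 60.4 CPM in shCtrl and at 80.6, 64.1 and 70.5 CPM in shMORC2, the lowest counts among the 10 genes. Its log2 fold change was 0.09 (SE 0.11, 95% interval -0.15 to 0.33, edgeR adjusted p 0.567). MFSD11, a gene of the major facilitator family on the opposite strand, shares 1106 bases, or 36.7%, of the SRSF2 exon sequence. Its own counts were 3398, 2572 and 2448 in shCtrl and 3415, 2780 and 3067 in shMORC2, close to the 3503, 2636 and 2483 and the 3576, 2670 and 3004 of SRSF2. Reads of the pair cannot be told apart in the shared bases while the strand setting is not known.

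**Figure D2:**
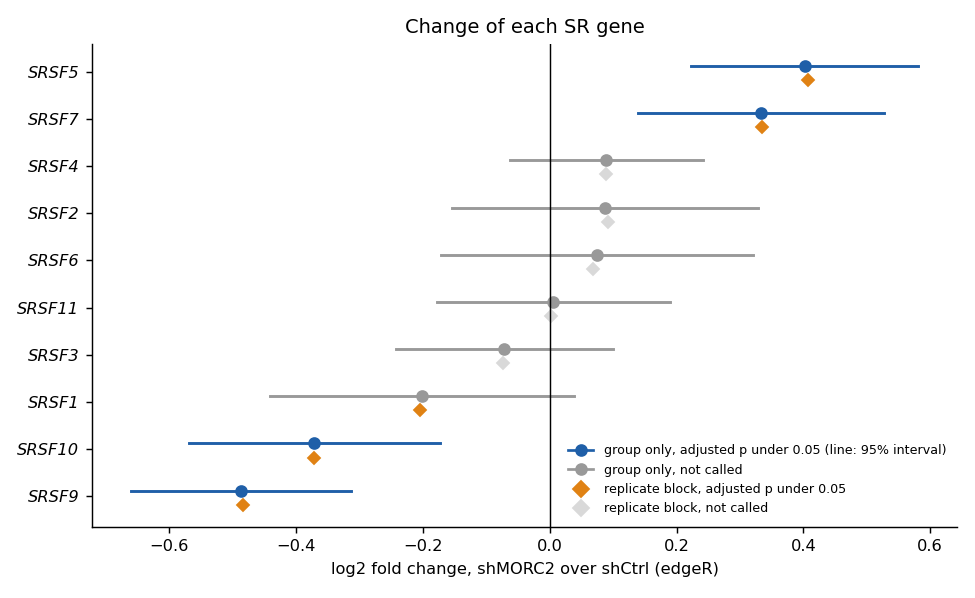
Log2 fold change of each SR gene (shMORC2 over shCtrl), with circles and 95% intervals from the fit on group alone and diamonds from the fit with the replicate block. Intervals of SRSF9, SRSF10, SRSF7 and SRSF5 exclude 0, and SRSF1 is called by the fit with the block but not by the fit on group alone. The pairing in the block was taken from these same values.

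Outside these 10, SRSF8 held 765 to 1062 counts in a library and was not called (log2 fold change 0.06, edgeR adjusted p 0.704), and SRSF12 held at most 4. The listed pseudogenes SRSF1P1, SRSF9P1 and SRSF10P1 held at most 8 counts in any library, so few reads of the parent genes were counted there.

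Replicate 1 ran high for most SR genes in both groups. In shCtrl replicate 1, 8 of the 10 genes were above their group mean, with a median deviation of 0.13 on the log2(CPM + 1) scale, and in shMORC2 replicate 1, 9 of 10 were, also with a median of 0.13. In the other 4 libraries 1 to 4 of the 10 genes were above it. The same shares were not taken over all genes tested, so the pattern is not shown to be particular to the SR genes. Across all genes tested, the libraries numbered 1 deviated together too (r = 0.386). The deviation of SRSF2 in replicate 1 was 0.25 in shCtrl and 0.17 in shMORC2, and that of SRSF6 was 0.19 and 0.25. SRSF4 went the other way in both groups, at -0.03 and -0.05, and SRSF9 in shCtrl alone, at -0.12 against 0.01. Each mean is over 3 values, so the deviations within a group sum to 0. Whether libraries of the same number were handled together is not given in the sources used here, and its part was not tested.

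**Figure D3:**
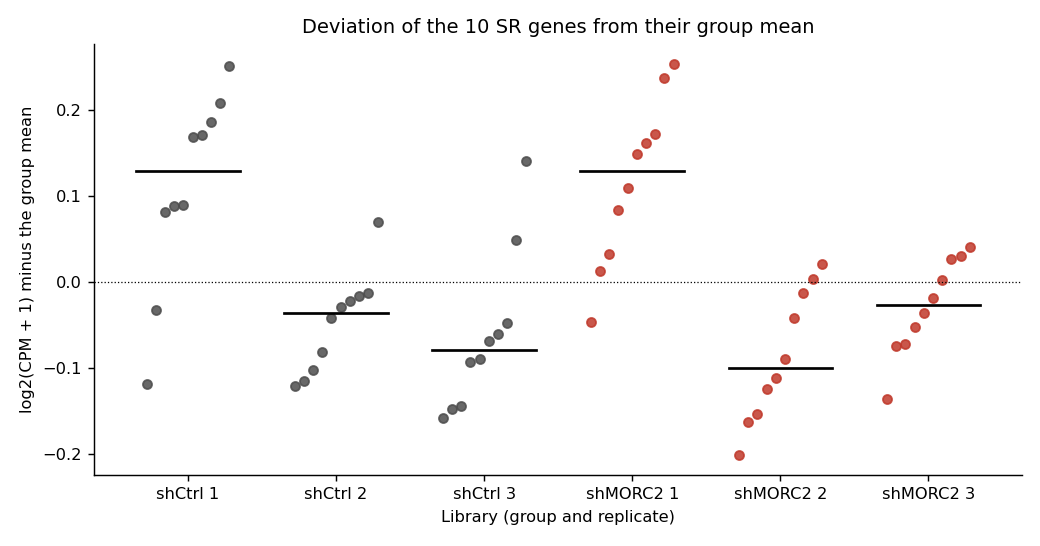
Deviation of each of the 10 SR genes from its own group mean on the log2(CPM + 1) scale, by library, with the black line at the median. Replicate 1 has a median of 0.13 in both groups, and 8 and 9 of the 10 genes lie above 0 there.

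Levels of different genes were compared per length, as RPKM (reads per kilobase of merged exon, scaled to the total of the library). All 10 SR genes were abundant, each above 93.4% or more of the 36613 genes in the RPKM table by the mean over 6 libraries, with SRSF1 highest of them at 98.0%. In shCtrl the order of mean RPKM ran SRSF1 (66.7), SRSF9 (55.4), SRSF4 (52.4), SRSF11 (46.4), SRSF5 (40.8), SRSF3 (33.6), SRSF7 (30.2), SRSF6 (29.3), SRSF2 (22.5) and SRSF10 (22.0). Neighbours in that order were apart in their ranges for SRSF1 over SRSF9, SRSF4 over SRSF11 and SRSF5 over SRSF3, and overlapped otherwise. In shMORC2 the order began with SRSF1 (57.7), SRSF4 (55.4), SRSF5 (53.6), SRSF11 (46.3), SRSF9 (39.4) and SRSF7 (37.8), followed by SRSF3 (31.7), SRSF6 (30.7), SRSF2 (23.7) and SRSF10 (16.9). Here the ranges were apart only for SRSF11 over SRSF9 and for SRSF2 over SRSF10. SRSF9 moved down this order, from rank 2 to rank 5, and SRSF5 moved up, from rank 5 to rank 3. The merged exon lengths ran from 3017 bases for SRSF2 to 10277 for SRSF10 and take in every annotated transcript, which lowers the RPKM of genes with long alternative transcripts.

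The summed level of the family overlapped between the groups. Summed RPKM was 435.7, 384.7 and 377.2 in shCtrl and 433.0, 366.0 and 380.7 in shMORC2, replicate 1 being highest in both. The means were 399.2 ± 31.9 and 393.2 ± 35.2 (SD, n = 3), and a two-sided exact permutation test over libraries gave p = 0.7, in a design of 3 against 3 that allows no p below 0.1. The log2 ratio of the means was -0.02 and ran from -0.10 to 0.05 when a library was left out. Within that sum some shares differed, mainly those of the genes called above. SRSF9 took 11.97%, 14.2% and 15.8% of it in shCtrl and 9.40%, 10.3% and 10.5% in shMORC2, a mean difference of -3.93 percentage points. SRSF5 took 10.7%, 10.0% and 9.87% in shCtrl and 13.0%, 14.4% and 13.6% in shMORC2, a difference of 3.46 points. SRSF7 had a mean share of 7.54% in shCtrl and 9.61% in shMORC2, and SRSF10 had a share of 5.50% in shCtrl and 4.29% in shMORC2.

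For these 4 genes the shares of the groups were apart, as they were for SRSF3, at 8.25% to 8.65% in shCtrl and 7.87% to 8.25% in shMORC2, where the gap was very small. Shares of SRSF1, SRSF2, SRSF4, SRSF6 and SRSF11 overlapped. With counts in place of RPKM the same 5 genes were apart in the same direction, although the difference was 1.41 points for SRSF7 and -2.22 points for SRSF10. Shares of one sum are not independent, since a rise in one lowers the rest, and no test was run on them. Such shares were not computed for other sets of genes. The 49.6% of all genes tested that were apart in RPKM itself is a different measure, so no background is given for these 5 genes.

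**Figure D4:**
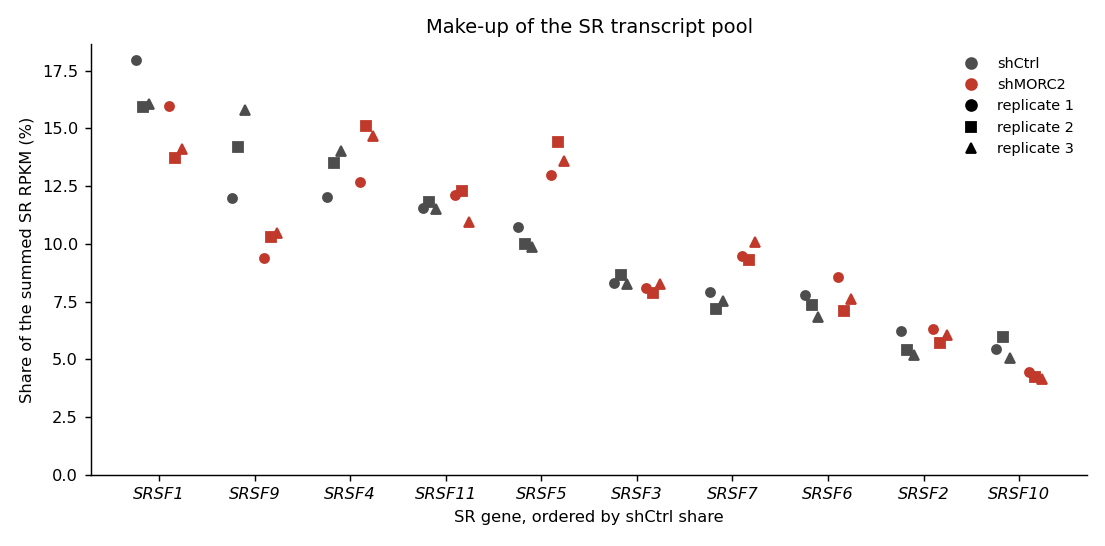
Share of each SR gene in the summed RPKM of the 10 genes (%), by library, with symbols for replicate number and genes ordered by their mean share in shCtrl. SRSF9 and SRSF10 take less, and SRSF5 and SRSF7 more, in every shMORC2 library than in any shCtrl library.

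Genes that modify SR proteins were called in both directions. The list held kinases, phosphatases, the import receptor TNPO3 and the SAFB proteins, and of its 17 genes 2 were called higher and 6 lower. That is 47.1%, between the 39.5% of all genes tested and the 51.6% of genes counted at least as highly as the SR genes, with a median log2 fold change of -0.11. CLK1, a nuclear kinase that releases SR proteins from speckles, stood at 52.8, 76.8 and 67.3 CPM in shCtrl and 47.6, 33.6 and 32.5 CPM in shMORC2. Its log2 fold change was -0.79 (SE 0.15, adjusted p 0.00102 in edgeR), the largest in the list. Its relative CLK4 (-0.59) and SRPK3 (-0.52), an SR kinase known mainly from muscle, were also lower on the log2 scale. PPP1CA, a catalytic subunit of protein phosphatase 1, stood at 101.9, 94.98 and 104.6 CPM in shCtrl and 142.0, 153.5 and 163.9 CPM in shMORC2, with a log2 fold change of 0.61 (SE 0.08). SAFB2, a scaffold attachment factor that binds RNA and SR proteins, had a log2 fold change of 0.61 too (SE 0.08). SRPK1, the main cytoplasmic SR kinase, had a log2 fold change of -0.16 and was not called (edgeR adjusted p 0.0905).

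Among 35 SR-related proteins, which carry regions rich in arginine and serine but are not classical SR proteins, 3 were called higher and 13 lower, or 45.7%. That lies between the 39.5% of all genes tested and the 51.6% of genes counted at least as highly as the SR genes. The median log2 fold change of the list was -0.16. NKTR, a cyclophilin with a long arginine-serine tail, fell from 153.8 ± 19.7 to 98.4 ± 21.4 CPM (log2 fold change -0.64, edgeR adjusted p 0.00199). RSRP1 fell from 92.5 ± 5.70 to 59.8 ± 4.23 CPM (log2 fold change -0.63, edgeR adjusted p 6.30e-05). ARGLU1, a splicing coregulator, fell from 541.1 ± 43.5 to 364.3 ± 31.8 CPM (log2 fold change -0.57, edgeR adjusted p 0.000224). LUC7L2 (0.41), a U1 snRNP-associated factor, SCAF1 (0.34) and ACIN1 (0.27), which joins the exon junction complex, were higher on the log2 scale. The SR-like activators TRA2A and TRA2B had log2 fold changes of -0.12 and 0.01 and were not called. With the replicate block 4 genes of the list were called higher and 17 lower, in a fit that called 49% of all genes tested, 24.4% as higher and 24.5% as lower.

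Genes of nonsense-mediated decay, the route that removes poison-exon transcripts of SR genes, were called higher for 4 of 17 and lower for 2. That is 35.3%, against 39.5% of all genes tested and 51.6% of genes counted at least as highly as the SR genes. The median log2 fold change was 0.05. The called genes with the largest rises were the exon junction complex genes MAGOHB (0.58), RBM8A (0.44) and MAGOH (0.44), and those that fell were SMG1 (-0.74), the kinase of UPF1, and NBAS (-0.57). SMG1 has near-identical partial copies on chromosome 16 and MAGOH and MAGOHB resemble each other closely, so their counts are less certain. With the replicate block 5 genes of this list were called higher and 4 lower, in a fit that called 24.4% of all genes higher and 24.5% lower. Of 22 major hnRNP genes, whose proteins often oppose SR proteins, 5 were called higher and 2 lower, with a median of 0.10. That is 31.8%, again against 39.5% of all genes tested and 51.6% of the genes counted as highly. HNRNPM (0.58), HNRNPC (0.35) and HNRNPUL2 (0.32) were higher, and HNRNPF (-0.53) and HNRNPLL (-0.27) lower. With the replicate block 10 hnRNP genes were called higher and 3 lower, again beside 24.4% of all genes higher and 24.5% lower.

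**Figure D5:**
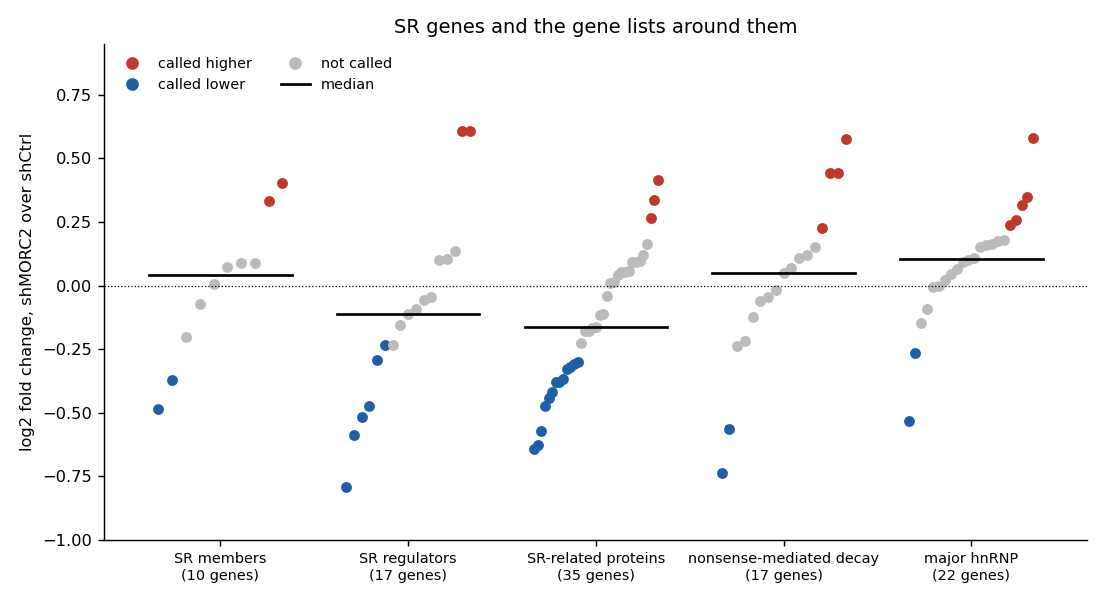
Log2 fold change (shMORC2 over shCtrl) of each tested gene of the SR family and of 4 lists around it, with red for called higher, blue for called lower, grey for not called and a black line at the median. Medians are 0.04 for the SR genes, -0.11 for their regulators, -0.16 for SR-related proteins, 0.05 for nonsense-mediated decay and 0.10 for the hnRNP genes.

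The 5 genes whose pattern over the 6 libraries was most like that of SRSF9 were RP11-178L8.4, TM2D3, PRDM10, GSG2 and ATG4D, out of 14334 genes that averaged 100 counts or more. Likeness was the root mean square difference of log2 CPM centred on the shCtrl mean, which was 0.0436, 0.0446, 0.0464, 0.0472 and 0.0492. Nothing was read from it about function.

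The deposited splicing records listed 1449 events in 1181 genes, chosen by the authors from 28265 skipped exons, 4634 mutually exclusive exons, 202 retained introns and 319 and 480 alternative donor and acceptor sites. None of the 1449 lay in any of the 10 SR genes, by symbol or by gene identifier. With 1181 genes listed beside 21005 tested for level, the lack of an event in 10 genes says little about the family. Which events of the SR genes were covered before the authors' selection is not known, so no inclusion level of an SR poison exon is given. In the GENCODE v44 annotation, each of the 10 SR genes has 1 to 6 transcripts marked for nonsense-mediated decay, with 6 in SRSF7 and 5 in SRSF9, whereas 39.1% of 20020 coding genes have any. Transcripts with a retained intron are annotated in 9 of the 10, all but SRSF6, and in 48.2% of coding genes. The gene counts do not separate these transcripts from coding ones.

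Around the family, 1 event was listed in the 17 SR regulators and 2 in the 35 SR-related proteins. A further 3 were listed in the nonsense-mediated decay genes and 3 in the hnRNP genes. By gene, an event was listed in 1 of 17 regulators, 2 of 35 SR-related proteins, 2 of 17 decay genes and 3 of 22 hnRNP genes. The whole record listed 1181 genes, beside 21005 genes tested for level. Nothing was read from these counts. The record names its groups only as group 1 and group 2, so that no direction of the knockdown can be given. A mutually exclusive exon pair of TRA2A had inclusion levels of 0.369, 0.419 and 0.529 in group 1 and 0.312, 0.173 and 0.359 in group 2. It had 46 to 78 reads in a library, counted on junctions and on the target exon. The groups were apart by a narrow gap, between 0.369 in group 1 and 0.359 in group 2, with a mean difference of 0.158. The record lists only events chosen by the authors, so groups lying apart in it may reflect that choice. A skipped exon of SAFB2 was included at 0.939, 0.941 and 0.957 in group 1 and 0.755, 0.806 and 0.883 in group 2, from 150 to 238 reads. Its difference was 0.131, but 0.0334 when reads were not corrected for the length of the inclusion form. In ACIN1 the groups overlapped, with a mean difference of 0.114.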

How the data were processed

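The authors deposited raw counts per gene symbol and RPKM values computed from them (count per kilobase of merged exon, scaled to the column total, as recalculated here). They also deposited selected splicing events with inclusion levels as fractions, beside p-values and differences of their own that were not used. The submitters' processing notes name GRCh38, Trimmomatic 0.36, STAR 2.5.3a, featureCounts from Subread 1.5.1 and edgeR 3.12.1. The annotation release, the strand setting and any collapse of molecular identifiers are not given in the sources used here; uncollapsed PCR copies would make counts look more precise than they are.

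Counts were tested in R 4.3.3 with edgeR 4.0.16 (filterByExpr, TMM, quasi-likelihood fit, group as the only term), with Benjamini-Hochberg adjustment over 21005 genes and calls at 0.05. Two-sided tests were used throughout. The SE is the fold change divided by the square root of F. CPM used TMM-scaled library sizes, while RN7SK was scaled to the plain library total. The exact permutation test used scipy 1.17.1. The edgeR test was also run on simulated counts drawn independently for each library. That simulation held no deviation shared by libraries of the same number, so it says nothing about the effect of one. Within-group pairs of libraries differed beyond sampling noise (chi-square per degree of freedom 6.83 to 23.9). Libraries of the same number deviated together across genes (r = 0.386, 0.193 and 0.181 for replicates 1, 2 and 3), so the numbers were taken to pair them, from the values alone. The labels give no pairing, and libraries of different numbers were not compared in this way.

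Alternatives were DESeq2 1.42.0, no TMM, no filter, at least 10 counts in every library, the replicate block, limma 3.58.1 on log2(RPKM + 1) or log2(RPKM + 0.1), each library left out and, added after seeing the data, no mitochondrial genes. Named genes were all members, MORC2, RBM39, SRSF8, SRSF12, overlapping genes and, per list, up to 3 called genes in each direction with the largest change and 100 or more counts on average; SRPK1, TRA2A and TRA2B were named after their values were seen. Members, lists and rules were chosen with earlier results of these data known. No protein sequences were used here. One leukocyte marker is not reported here and was left out of its list.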

Additional observations from a re-analysis of the deposited data

How the results depend on the processing

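SRSF5 and SRSF9 were called in the same direction under all 15 alternatives, SRSF10 under 14, SRSF7 under 13 and SRSF1 under 2. With limma on log2(RPKM + 1) and no filter, 2 SR genes were called, 1 higher (SRSF5) and 1 lower (SRSF9). It called 5454 of 36613 genes in all. That setting ended the calls of SRSF7 (adjusted p 0.111) and SRSF10 (adjusted p 0.0923). Leaving out each library in turn gave 3 to 5 SR genes called, 1 to 2 higher and 2 to 3 lower. In all, from 6268 (of 21598 tested) to 8433 (of 21524 tested) genes were called in these fits. The count of 1 higher came without shCtrl replicate 2, which ended the call of SRSF7. In the fit with the replicate block, 5 SR genes were called, SRSF1 joining the others, and 10287 of the 21005 genes tested. The pairing in that fit was taken from these values. DESeq2 called 4 SR genes and 7566 of the 36613 genes fitted.

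Of the 6 SR genes that were not called, SRSF2, SRSF6 and SRSF11 changed sign under at least 1 alternative. SRSF11 turned to -0.0021 without TMM, to -0.0057 with limma on log2(RPKM + 1), filtered or not, and to -0.0058 with a pseudocount of 0.1. With a library left out it ran from -0.070 to 0.076, SRSF2 from -0.0020 to 0.22 and SRSF6 from -0.062 to 0.17, the lowest value in each case coming without shMORC2 replicate 1. Standard errors of the SR genes ran from 0.07 to 0.11 on the log2 scale in the fit on group alone.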
